A study of Mus musculus with 8 samples.

Results

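The genes of the cytosolic ribosomal proteins were followed in trigeminal ganglia of control mice and of mice transgenic for daDREAM. Members were the genes whose symbol starts with Rpl or Rps and a digit, together with Rplp0, Rplp1, Rplp2 and Rpsa, and without the S6 kinase genes (Rps6k) and symbols marked as pseudogenes. Of 18193 genes with a probe set that carries a single gene symbol, 50 were members: 20 proteins of the large subunit, 21 of the small subunit, the stalk genes Rplp0 and Rplp2, 6 paralogues (Rps4l, Rpl3l, Rpl7l1, Rpl22l1, Rpl39l and Rps27l) and Rps19bp1. The last is named for binding Rps19 and is not itself a ribosomal protein, and RefSeq lists Rps4l as a transcribed pseudogene and the other 49 members as protein coding. Rpl3, Rpl10, Rpl10l, Rpl36a, Rpl36al and Rplp1 fit the naming rule but were not analysed here.

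Messenger RNA abundance was measured on 8 Affymetrix Mouse Genome 430 2.0 arrays, 4 of control ganglia and 4 of ganglia from transgenic mice whose sample titles carry the tag tg16. Kcnip3 encodes DREAM, a repressor of transcription that leaves DNA when it binds calcium, and daDREAM is a dominant active mutant that does not respond to calcium. All mice were adult males of the C57B/6XCBA background, and experiments took place in the light phase. The sources used here give neither the promoter of the transgene nor the number of animals behind an array. The design text speaks of biological replicates, and the p-values below rest on the spread among these 8 arrays.

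The cytosolic ribosome joins a small subunit, which reads the messenger RNA, with a large subunit, which forms the peptide bond. Its proteins are needed in fixed proportion, their genes are transcribed at high rates in most cells, and many of the transcripts begin with a run of pyrimidines, the TOP motif, through which mTOR signalling sets their translation. In sensory neurons, which carry long axons, ribosomal protein transcripts are found in the cell body and also in the axon.

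The arrays were alike in scale, with array medians of 7.09 to 7.13 and correlations between arrays of 0.983 to 0.996. Kcnip3 differed by 0.03 between the groups, but whether its probe set covers the transgene is not given, so this does not check the labels. Over all genes 2% passed the test, 18.2% were under an unadjusted p of 0.05 and 10.7% had groups without overlap. The sensory neuron markers read 8.89 to 14.44 and 0 of 11 passed the test or were under an unadjusted p of 0.05. Their list means were 12.01 to 12.24 on control and 12.11 to 12.23 on transgenic arrays. The groups did not overlap in 2 of the 11 (18.2%), Nefh at 0.15 and Nefm at 0.10. Of 6 satellite glia and Schwann cell markers 0 passed and 1 was under an unadjusted p of 0.05 (12.59 to 12.71 and 12.63 to 12.81). Several markers of other tissues had larger differences. All 7 central nervous system markers had a difference above 0 and 1 passed (Aqp4), with list means of 9.01 to 9.97 on control and 10.04 to 10.55 on transgenic arrays, and 0 passed when control array 1, transgenic array 3 or transgenic array 4 was left out. All 7 skeletal muscle markers lay below 0 and 0 passed, with 4 under an unadjusted p of 0.05 (6.39 to 8.13 and 6.31 to 6.41). Their median difference of -0.68 became -0.06 without control arrays 1 and 3, those with the most Acta1. All 7 pituitary markers lay above 0, and 0 passed or were under that p (6.74 to 7.81 and 6.55 to 9.0), and of 6 blood and lymphocyte markers 2 passed as higher and 1 as lower (7.20 to 7.48 and 7.32 to 7.53). Control arrays 1 and 4 had the most 18S ribosomal RNA signal, control arrays 1 and 3 the most muscle Acta1, and control array 3 and transgenic arrays 3 and 4 the most pituitary Gh. Xist, a transcript of female cells, read 10.20 and 11.72 on control arrays 3 and 4 and 11.51 on transgenic array 4 against 6.10 to 6.49 on the others, although the labels give males. All 8 arrays enter the values below unless a sentence says otherwise.

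As a group the ribosomal protein genes differed little between control and daDREAM ganglia. Of the 50 members, 1 passed the test, Rps4l, which fell, and 49 did not, where limma called 364 of the 18193 genes (2%) at an adjusted p under 0.05. The members' share of 2.0% was the same as that of all genes. At an unadjusted p under 0.05 stood 5 members (10.0%), all lower in transgenic ganglia (Rps4l, Rpl14, Rpl13a, Rpl39l and Rpl37), against 18.2% of all genes. The 4 control and 4 transgenic values of a gene did not overlap in 1 member, against 10.7% of all genes. In bulk tissue, fewer cells of a type and less RNA per cell cannot be told apart.

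The differences of most members were small as well as rarely called. Their median difference, transgenic minus control on the log2 scale, was 0.00, with quartiles of -0.04 and 0.05, where the quartiles of all genes were -0.10 and 0.10 about a median of 0.00. The difference was above 0 in 21 members, below 0 in 26 and exactly 0 in 3. The 95% interval of the difference lay within 0.25 of zero on both sides in 31 members (62.0%), against 5360 of all genes (29.5%). Bright genes are measured with less spread, and among the 492 genes with a mean of at least 12 the share was 57.5%, against 27 of the 33 members at that level (81.8%). Of those 33 members 0 passed the test, 1 was under an unadjusted p of 0.05, and their differences ran from -0.20 to 0.19. Of the 17 members with a mean under 12, 1 passed (5.88%, against 2% of all genes). Under an unadjusted p of 0.05 were 4 of these (23.5%, against 18.2% of all genes), and their differences ran from -1.01 to 0.17. The RMA values are relative to the average gene of each array, because quantile normalization removes a shift that most genes share.

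**Figure D1:**
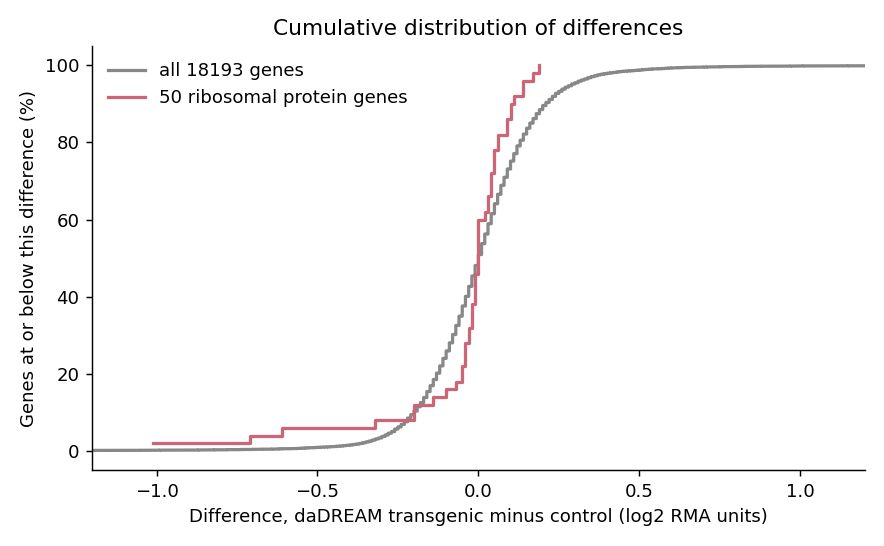
Cumulative share of genes (percent, y axis) at or below each difference in log2 RMA units, transgenic minus control (x axis), for all 18193 genes (grey) and the 50 ribosomal protein genes (red). The red curve is steeper around 0, with quartiles of -0.04 and 0.05 against -0.10 and 0.10, and has a tail on the lower side down to -1.01.

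The signal of the members as a body stayed level from array to array. The mean over the 33 bright members was 12.90, 13.01, 12.89 and 12.87 on control arrays 1 to 4 and 12.96, 12.95, 12.90 and 12.91 on transgenic arrays 1 to 4. The groups overlap, and the highest value is that of control array 2. The large subunit genes had a median difference of -0.01 (range -0.71 to 0.14). Of these 20, 0 passed and 3 were under an unadjusted p of 0.05 (15%). The small subunit genes had a median difference of 0.00 (range -0.10 to 0.14), and of these 21, 0 passed and 0 were under that p. Over all genes 2% passed and 18.2% were under that p. The lower end of the large subunit range was held by Rpl14, Rpl27a and Rpl37, the members with the largest differences after Rps4l. All 3 are among the members with a mean under 12 (7.61, 8.39 and 9.43). The sources used here do not say whether these probe sets read the main transcript of each gene. The 23 members outside the rule for named genes ran from -0.10 to 0.09. Of these, 0 passed, were under an unadjusted p of 0.05 or had groups without overlap, against 2%, 18.2% and 10.7% of all genes.

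**Figure D2:**
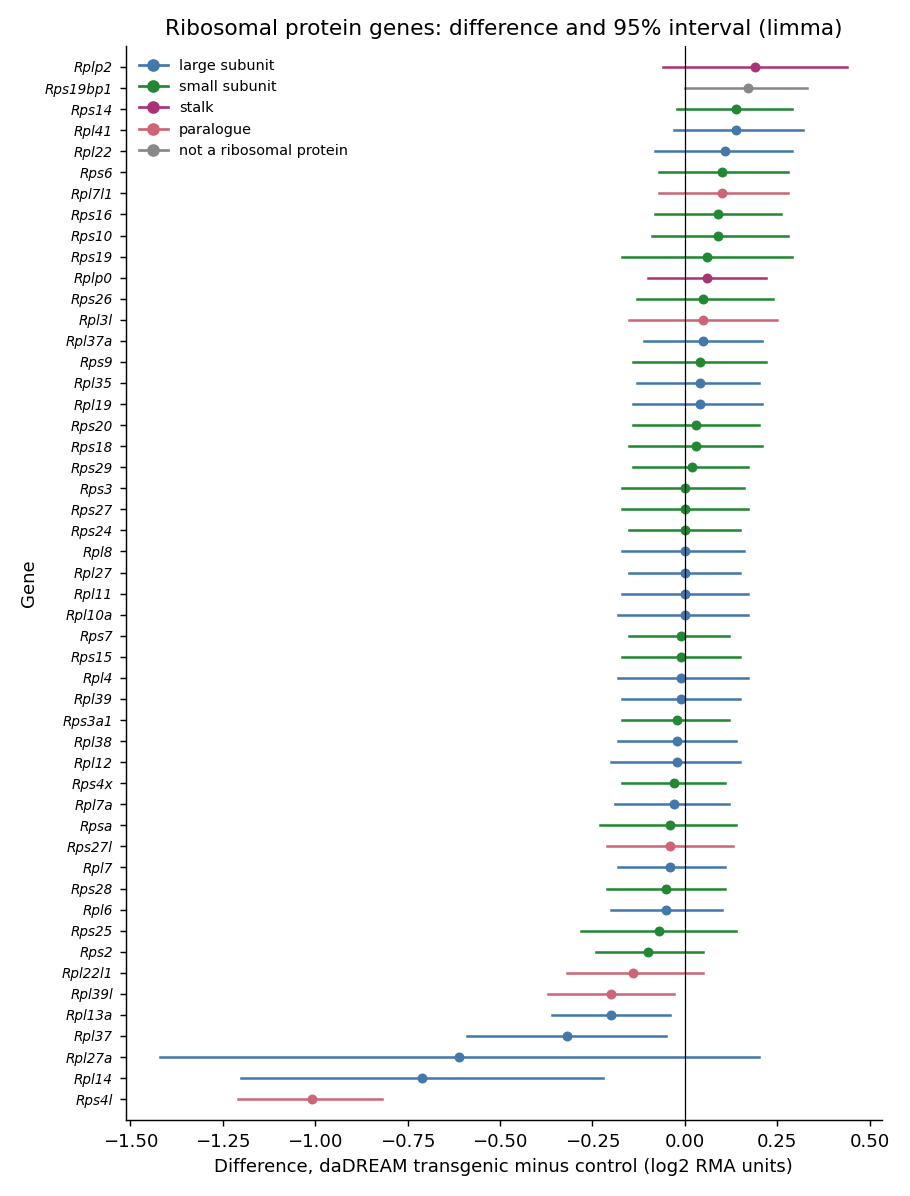
Difference of each of the 50 members in log2 RMA units (x axis, transgenic minus control, n = 4 arrays per group) with its 95% interval from limma, ordered by size and coloured by class. All but 4 members lie less than 0.25 from 0, and the exceptions Rpl37, Rpl27a, Rpl14 and Rps4l are all lower in transgenic ganglia.

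Rps4l, a gene on chromosome 6 named for its likeness to the small subunit protein S4, was the member that changed. It read 9.77, 9.88, 9.69 and 9.61 on control arrays 1 to 4 and 8.67, 8.94, 8.65 and 8.63 on transgenic arrays 1 to 4. Every transgenic value lay below every control value, and the transgenic array nearest to the controls was array 2. The means were 9.74 ± 0.12 and 8.72 ± 0.15 (SD, n = 4), so that Rps4l fell by 1.01 on the log2 scale (SE 0.09, 95% interval -1.21 to -0.82), or 2.02-fold (limma adjusted p = 9.7e-05). It passed in each of 24 alternative settings, with differences of -1.09 to -0.95 and an adjusted p of at most 0.029. Several of these could not change its values. Rps4l has 1 probe set, which the settings of probe set choice and mean filter left as it was. A looser threshold of 0.10 could not undo the call. Leaving out control arrays 1 and 4, with the most 18S, gave -1.06. Without the arrays with the most Acta1 it was -1.02, without those with the most Gh -0.95 and without those with Xist signal -1.07. All 4 transgenic arrays also had higher central nervous system list means than the controls, and the part of this in the result was not tested.

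Rps4x, the X-linked gene of ribosomal protein S4 itself, did not pass. Its brighter probe set read 12.95, 13.05, 13.06 and 13.06 on control arrays and 12.98, 13.01, 12.98 and 13.03 on transgenic arrays. The groups overlap, the difference was -0.03 (95% interval -0.17 to 0.11, limma adjusted p = 0.839), and a dimmer probe set differed by 0.15 (adjusted p = 0.492 over probe sets). Rps4l rests on 1 probe set, and the sources used here do not say whether that probe set also reads Rps4x or copies of it elsewhere in the genome.

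The other paralogues did not pass. Rpl22l1, a paralogue of the large subunit gene Rpl22, read 11.89, 11.96, 11.81 and 11.82 on control arrays and 11.95, 11.69, 11.67 and 11.62 on transgenic arrays. The first transgenic array lay among the controls and the other 3 below them, a difference of -0.14 (limma adjusted p = 0.411). Its parent Rpl22 differed by 0.11 (adjusted p = 0.536), or -0.02 when control arrays 1 and 4 were left out, and by 0.07 and 0.06 on further probe sets. Rpl39l, a paralogue best known from the testis, read 5.68, 5.59, 5.77 and 5.48 on control arrays and 5.42, 5.48, 5.42 and 5.39 on transgenic arrays. These values are near background, the groups touch at 5.48, and the difference of -0.20 did not pass (adjusted p = 0.207). Leaving out the arrays highest in Acta1 gave -0.11, and leaving out those highest in Gh gave -0.13. The X-linked parent Rpl39 differed by -0.01. Rpl3l, the paralogue of heart and skeletal muscle, differed by 0.05 (adjusted p = 0.809) at a mean of 5.92, also near background. Rpl7l1, a nucleolar paralogue of Rpl7 that works in subunit assembly, differed by 0.10 (adjusted p = 0.513) and Rpl7 by -0.04. Rps27l, a p53-induced paralogue of Rps27, differed by -0.04 (adjusted p = 0.816) and Rps27 by 0.00.

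Rps3, a small subunit protein at the entry of the messenger RNA channel, gave a different picture on each of its 3 probe sets. It was chosen for description after its values were seen. The brightest probe set, which represents the gene, read 12.80, 12.88, 12.77 and 12.59 on control arrays and 12.78, 12.78, 12.76 and 12.70 on transgenic arrays. The transgenic values all lay inside the control range and the difference was 0.00 (limma adjusted p = 0.981).

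The second Rps3 probe set read 7.61, 7.39, 7.09 and 6.69 on control arrays and 9.26, 9.09, 8.88 and 8.79 on transgenic arrays. Every transgenic value lay above every control value, and this probe set was 3.51-fold higher with daDREAM (difference 1.81, SE 0.17, limma adjusted p = 0.000104 over probe sets). Leaving out each array in turn gave 1.64 to 1.95 and passed each time. The third Rps3 probe set read 6.59, 6.71, 6.75 and 6.78 on control arrays and 6.38, 6.30, 6.44 and 6.45 on transgenic arrays. Its groups did not overlap either, but in the other direction, with a difference of -0.31 (limma adjusted p = 0.0464 over probe sets). It no longer passed without control array 2, 3 or 4 or without any 1 of the transgenic arrays, where adjusted p ran from 0.074 to 0.142. The sources used here do not say which stretch of the Rps3 gene each probe set reads. The platform annotation gives all 3 the symbol Rps3 alone.

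**Figure D3:**
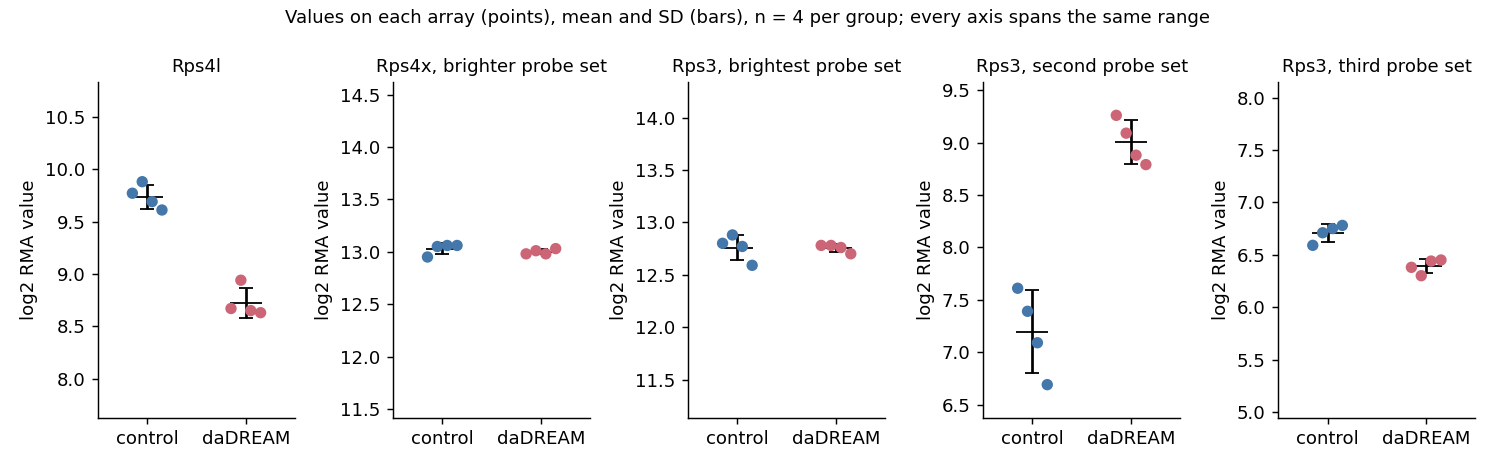
Log2 RMA values on each array (points, y axis), with mean and SD (bars, n = 4 per group), for Rps4l, the brighter Rps4x probe set and the 3 Rps3 probe sets, with control arrays in blue and transgenic arrays in red. Each y axis spans the same number of log2 units, so that distances compare between panels while levels do not. Rps4l is lower by 1.01, the second Rps3 probe set higher by 1.81, and the Rps4x and brightest Rps3 probe sets overlap between groups.

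Over all 106 probe sets that name a member alone, 3 passed (2.83%), against 1236 of 45037 probe sets (2.74%). These were the Rps4l probe set and both dimmer ones of Rps3. The groups did not overlap in 7 of the 106 (6.60%), against 4972 of all probe sets (11.0%). Among the 56 that do not represent their gene the median difference was 0.03 and the range -0.38 to 1.81. Most genes with several probe sets held to small values on each: the 6 of Rps24 ran from -0.11 to 0.06 and the 3 of Rps29 from 0.02 to 0.05. Others spread more: those of Rps20 ran from -0.38 to 0.03 and those of Rpl35 from -0.29 to 0.09. The lowest of each was dim and did not pass (limma adjusted p = 0.124 and 0.109 over probe sets), and that of Rpl35 had groups without overlap.

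Rpl14, a large subunit protein, had the largest difference among genes of the subunits. It read 7.13, 8.23, 8.43 and 8.08 on control arrays 1 to 4 and 7.42, 7.29, 7.17 and 7.15 on transgenic arrays 1 to 4. Control array 1 was the lowest of all 8, and the other 3 controls were all above the transgenic arrays. The means were 7.97 ± 0.58 and 7.26 ± 0.12 (SD, n = 4), a difference of -0.71 (SE 0.22) that did not pass (limma adjusted p = 0.142). Without control array 1 the difference was -0.99 and passed (adjusted p = 0.00099). It also passed without the arrays with the most 18S (-1.07, adjusted p = 0.00144) and the most Acta1 (-0.90, adjusted p = 0.0053), both of which leave out control array 1, and did not without those with Xist signal (-0.39, adjusted p = 0.55). The call thus turned on that array, and no other probe set names Rpl14 alone. Probe sets that name several genes were not used.

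Rpl27a, a large subunit protein near the peptidyl transferase centre, followed the 18S signal among the controls. It read 9.49, 8.02, 7.71 and 9.58 on control arrays 1 to 4 and 8.16, 8.09, 7.79 and 8.32 on transgenic arrays 1 to 4. The 18S control probe sets read 9.41, 7.76, 7.71 and 10.65 on the same control arrays and 7.79, 7.89, 8.11 and 8.05 on the transgenic arrays. Control arrays 1 and 4 were the highest in both. The difference of Rpl27a was -0.61 (SE 0.37, limma adjusted p = 0.399), and without those 2 arrays it was 0.22 (adjusted p = 0.605). A dimmer probe set of Rpl27a read 5.20, 5.10, 5.27 and 5.64 on control arrays and 5.13, 5.04, 5.20 and 5.16 on transgenic arrays, a difference of -0.17. It was highest on control array 4 but lower on control array 1 than on control array 3, so it did not follow the 18S signal on control array 1. The 18S signal itself differed by -0.92 between groups (8.88 ± 1.42 and 7.96 ± 0.15, SD, n = 4, two-sided exact permutation p = 0.429, 0.8 after adjustment over 3 quality measures), where the smallest p that 70 assignments allow is 0.0286. The 3′ minus 5′ signal of Gapdh and of Actb, a sign of RNA degradation, differed by -0.01 and -0.03.

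**Figure D4:**
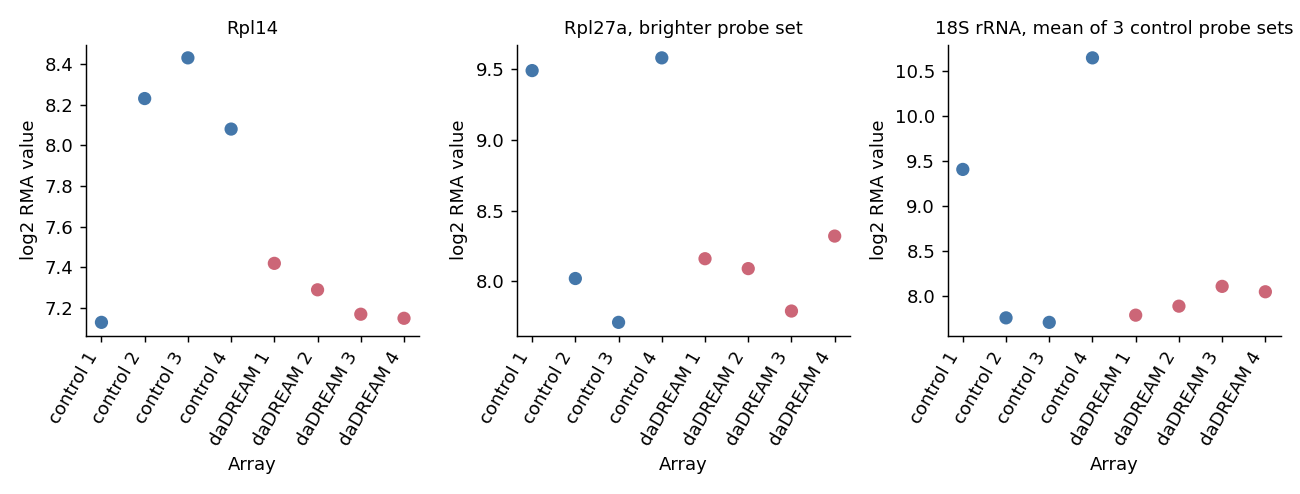
Log2 RMA values on each of the 8 arrays (x axis; control in blue, transgenic in red) of Rpl14, of the brighter Rpl27a probe set and of 18S ribosomal RNA as the mean of 3 control probe sets, each panel on its own y axis. Rpl27a and 18S are both highest on control arrays 1 and 4, while Rpl14 is lowest on control array 1 and high on the other 3 controls.

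Rpl37 and Rpl13a completed the lower end of the large subunit. Rpl37 read 9.42, 9.50, 9.46 and 9.99 on control arrays and 9.46, 9.19, 9.29 and 9.15 on transgenic arrays. Control array 4 stood above the rest, and the difference of -0.32 (SE 0.13) did not pass (limma adjusted p = 0.217). Without control array 4 it was -0.19 (adjusted p = 0.336). Rpl13a, which also serves outside the ribosome as a translational silencer in myeloid cells, read 13.48, 13.56, 13.50 and 13.31 on control arrays and 13.28, 13.32, 13.24 and 13.21 on transgenic arrays. The groups crossed only at transgenic array 2 and control array 4, and the difference of -0.20 did not pass (adjusted p = 0.200). Further Rpl13a probe sets differed by -0.20, -0.06 and 0.09, so its probe sets did not share a sign. Rpl41, the smallest ribosomal protein, stood at the upper end, with 13.00, 13.29, 13.09 and 13.07 on control arrays and 13.32, 13.29, 13.19 and 13.22 on transgenic arrays. The groups overlap at control array 2, and the difference of 0.14 did not pass (adjusted p = 0.360). Without the arrays with the most 18S it was 0.06 and without those with the most Acta1 0.07.

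Small subunit genes ran over a narrower range than large subunit genes, where Rpl14, Rpl27a and Rpl37, each with a mean under 12, set the lower end. The highest of the small subunit genes did not pass. Rps14, at the platform of the small subunit, read 13.01, 12.91, 12.87 and 13.08 on control arrays and 13.08, 13.09, 13.08 and 13.16 on transgenic arrays. The groups touch at 13.08, and the difference was 0.14 (limma adjusted p = 0.341). A second Rps14 probe set read 12.35 to 12.59 on control and 12.65 to 12.71 on transgenic arrays, with no overlap and a difference of 0.20 (adjusted p = 0.187 over probe sets). Rps6, the substrate of the S6 kinases downstream of mTOR, read 8.76, 8.80, 8.72 and 8.58 on control arrays and 8.95, 8.82, 8.81 and 8.69 on transgenic arrays. Transgenic array 4 lay inside the control range, the difference was 0.10 (adjusted p = 0.515), and a dimmer probe set differed by -0.13. Rpsa, the ribosomal form of the laminin receptor, differed by -0.04 (adjusted p = 0.813), and Rps16, at a mean of 4.58 near background, by 0.09 (adjusted p = 0.564). The 3 members with the highest signal, Rps29, Rpl38 and Rpl37a, differed by 0.02, -0.02 and 0.05. The sources used here do not say whether probes this bright were saturated.

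The stalk genes, whose products recruit elongation factors to the large subunit, did not pass. Rplp2 read 12.86, 13.25, 13.08 and 12.67 on control arrays and 13.26, 13.17, 13.11 and 13.08 on transgenic arrays. Control arrays 1 and 4, those with the most 18S signal, were the lowest of the 8, and the difference of 0.19 (95% interval -0.06 to 0.44, limma adjusted p = 0.397) became -0.01 without them. Rplp0, the stalk base, differed by 0.06 (adjusted p = 0.683). Rps19bp1, the binding partner of Rps19 that also regulates the deacetylase SIRT1, read 8.79, 8.79, 8.66 and 8.80 on control arrays and 9.02, 8.96, 8.78 and 8.94 on transgenic arrays. Transgenic array 3 lay inside the control range, and the difference of 0.17 did not pass (adjusted p = 0.276).

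Promoter sequences, from RefSeq on GRCm38.p6, were found for 44 of the 50 members, not including Rps4l. A run of 8 or more bases that are each C or T, lying from 20 bases before to 30 after the annotated start on the gene's strand, was present in 21 of them (47.7%), against 18.8% of 27025 promoters. The motif CCGGAAG, which ETS-family factors bind, occurred on either strand of the 300-base window in 21 (47.7%) against 9.12%, and AAGATGGC, which fits YY1, in 3 (6.82%) against 2.88%. TATAAA, searched on both strands, occurred in 5 (11.4%) against 14.2%. GTCA, the core of the downstream regulatory element to which DREAM binds, was present on the gene's strand within the 50 bases after the start in 7 (15.9%) against 14.4%, and on either strand there in 9 (20.5%) against 27.4%. CCGGAAG read on the opposite strand, CTTCCGG, begins with bases that can be part of a C or T run. A match is a description of sequence, not a binding site. The windows of 8 of the genes described above, chosen as examples after the sequences and values were seen, are printed 5′ to 3′ around the annotated start, 15 bases on each side, so that the TOP-like run can be seen beside the values. Capitals mark bases of a run of at least 8 C or T. The first 5 have such a run, in genes from the lower to the upper end of the differences, and the last 3, among them Rps3 and Rps4x, have none. The rule depends on the annotated start and a fixed length. A missing run therefore does not show that a transcript lacks the TOP motif.
Rpl14 (chr9:120571502-120571531, plus strand): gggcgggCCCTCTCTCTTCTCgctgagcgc
Rpl27a (chr7:109519180-109519209, plus strand): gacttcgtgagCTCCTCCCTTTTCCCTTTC
Rpl13a (chr7:45128731-45128760, minus strand): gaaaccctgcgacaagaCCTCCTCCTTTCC
Rps6 (chr4:86857353-86857382, minus strand): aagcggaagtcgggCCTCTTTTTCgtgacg
Rplp2 (chr7:141447636-141447665, plus strand): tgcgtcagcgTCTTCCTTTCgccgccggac
Rps3 (chr7:99483695-99483724, minus strand): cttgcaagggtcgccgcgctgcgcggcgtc
Rps4x (chrX:102189377-102189406, minus strand): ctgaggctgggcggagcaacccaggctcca
Rpl22 (chr4:152325711-152325740, plus strand): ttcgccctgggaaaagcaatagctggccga

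The machinery around the ribosome was measured with lists of translation factors, assembly genes and the mTOR pathway, and 0 genes of these lists passed. Of 31 initiation factors the median difference was 0.01, and 2 were under an unadjusted p of 0.05 (6.45%, against 18.2% of all genes). Eif3k, a subunit of eIF3, read 11.05, 11.29, 11.09 and 11.28 on control arrays and 11.65, 11.54, 11.36 and 11.40 on transgenic arrays. Its groups did not overlap, but the difference of 0.31 did not pass (limma adjusted p = 0.116). Eif2b4, of the exchange factor for eIF2, differed by 0.22 (adjusted p = 0.265), and by 0.12 without control array 4. Of 11 elongation and termination factors the median was 0.06, and 1 was under that p (9.09%). Eef1a2, the eEF1A form of neurons and muscle, differed by 0.26 (adjusted p = 0.27) and Eef2k, the kinase that inhibits eEF2, by 0.17 (adjusted p = 0.309). Without control arrays 1 and 4 the difference of Eef1a2 was 0.04 and that of Eef2k 0.10. Dimmer Eef2k probe sets differed by 0.05 and -0.03. A list of 14 genes with TOP transcripts, or with a ribosomal protein fused to ubiquitin or a relative, shares 9 genes with the factor lists and is no separate evidence. Its median was -0.01 and 0 were under that p, with the histone chaperone Nap1l1 at -0.11 (adjusted p = 0.414) and Eif3f at 0.12 (adjusted p = 0.518), which was 0.00 without control arrays 1 and 4. The 5 genes in that list alone ran from -0.11 to 0.03. Further Nap1l1 probe sets ran from -0.08 to 0.24.

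Genes of ribosome assembly and of the nucleolus, 41 in number, had a median difference of 0.07, and 5 were under an unadjusted p of 0.05 (12.2%, against 18.2% of all genes). Tsr1, which acts late in small subunit assembly, read 9.09, 8.95, 9.03 and 9.03 on control arrays and 8.77, 8.91, 8.82 and 8.84 on transgenic arrays. The groups did not overlap, and the difference of -0.19 did not pass (limma adjusted p = 0.182). Bop1, of large subunit assembly, differed by 0.21 (adjusted p = 0.204), also without overlap, and by 0.10 when control arrays 1 and 4 were left out. A dimmer probe set of each overlapped between groups, at -0.04 for Tsr1 and -0.05 for Bop1. Of 14 genes of the mTOR and S6 kinase pathway the median was 0.06, and 2 were under that p (14.3%). Rps6kb2, the second S6 kinase, differed by 0.33 (adjusted p = 0.17) and Akt1s1, the mTORC1 inhibitor PRAS40, by 0.34 (adjusted p = 0.177). Without control arrays 1 and 4 these were 0.14 and 0.17. Dimmer Akt1s1 probe sets differed by 0.50, without overlap (limma adjusted p = 0.0647 over probe sets), and by 0.03.

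The proteins of the mitochondrial ribosome, which translates the few messages of mitochondrial DNA, are made from a separate set of nuclear genes. Of these 76 genes 4 passed, 3 higher and 1 lower (5.26%, against 2% of all genes), and 11 did not overlap between groups (14.5%, against 10.7%). The median difference was 0.07, with 58 above 0 and 18 below, where all genes had 9070 above and 8994 below. Genes with a mean of at least 8 had a median of 0.06, and the means of the mitochondrial genes were 7.92 to 11.39. At an unadjusted p under 0.05 stood 13 of them (17.1%, against 18.2% of all genes). Mrpl48, of the large mitochondrial subunit, read 9.74, 9.73, 9.57 and 9.80 on control arrays and 10.56, 10.49, 10.34 and 10.29 on transgenic arrays. All transgenic values lay above the controls, and it rose 1.64-fold (difference 0.71, limma adjusted p = 0.000854). Mrpl35 rose 1.54-fold (adjusted p = 0.00593) and Mrps14, of the small mitochondrial subunit, 1.31-fold (adjusted p = 0.0356). Mrpl27 fell 1.30-fold, from 10.85 to 11.08 on control arrays to 10.56 to 10.69 on transgenic arrays (adjusted p = 0.0229). Dimmer probe sets differed by 0.50 and 0.14 for Mrpl48, 0.80 and 0.60 for Mrpl35, 0.43 and 0.09 for Mrps14 and -0.39 for Mrpl27. The count that passed was 5 without control array 2, and 3 without control array 3 or 4 or transgenic array 1 or 4. It became 2 without control array 1, transgenic array 2 or transgenic array 3, and also without the arrays with the most 18S or the most Gh. It was 1, Mrpl48, without those with the most Acta1 or with Xist signal, and Mrpl48 passed in all of these settings. The difference between the mitochondrial and the cytosolic genes was not tested.

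**Figure D5:**
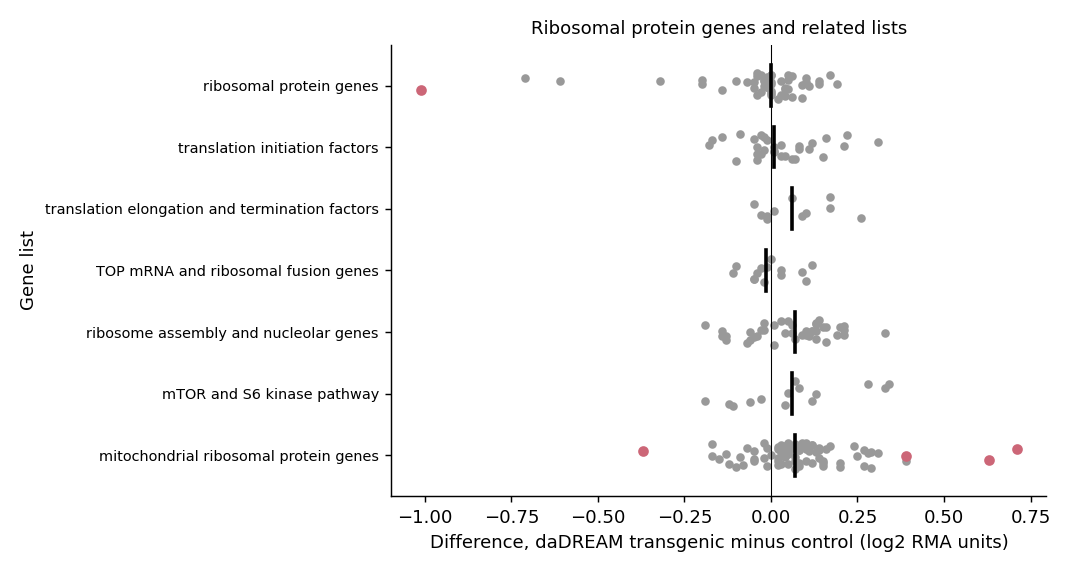
Difference of each gene in log2 RMA units (x axis, transgenic minus control) for the ribosomal protein genes and 6 related lists, with genes that passed in red, the others in grey and each list's median as a black bar. The medians lie between -0.01 and 0.07, and red points appear in the ribosomal protein row (Rps4l) and in the mitochondrial row (4 genes).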

How the data were processed

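The authors deposited 1 log2 value for each probe set and array; the submitters' processing notes name RMA and affy, with no version. Of 45101 probe sets, 64 Affymetrix controls were left out of the tests; 34945 of the rest carried a single gene symbol in the platform annotation, 932 several and 9160 none. Where a gene had several single-symbol probe sets, the one with the highest mean over 8 arrays stood for it. Groups were compared in R 4.3.3 with lmFit and eBayes of limma 3.58.1 (two-sided, no term but the group) with Benjamini-Hochberg adjustment over 18193 genes, or over 45037 probe sets where stated, at a threshold of 0.05. The test was tested on simulated data. Quality measures were compared by exact permutation over 70 assignments. Figures used matplotlib 3.10.9 in Python 3.11.15.

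Named genes are members that passed, the 6 with the smallest p in each direction, the 3 brightest and 3 dimmest, the paralogues and their parents, the stalk genes, Rps6 and Rpsa; in each related list up to 4 that passed or else the 2 with the smallest p. Members, lists and tests were chosen with earlier results of these data known. Levels of different probe sets are not compared. For promoters the first listed start of each gene in RefSeq GRCm38.p6 was used. The alternatives covered normalization, filters, probe set choice, variance model, the replicate number as a block and leaving out arrays; leaving out the arrays with Xist signal, and leaving out arrays for genes and medians of the related and marker lists, were chosen after seeing the data. The number of arrays limits the precision.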

Additional observations from a re-analysis of the deposited data

Results flagged for a closer look

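In 60 sets of 4 arrays, the named genes and the quality measures in each group, 6 had 1 array far from the other 3 by Dixon's test, where chance gives about 5%. Transgenic array 2 read 8.94 for Rps4l, above the other transgenic arrays, and the difference without it was -1.09. Control array 3 read 8.66 for Rps19bp1, below the other controls. Transgenic array 4 read 13.16 for Rps14, above the other transgenic arrays. Control array 4 read 9.99 for Rpl37, above the other controls, and the difference without it was -0.19. Transgenic array 1 read 10.66 for Rps27l, above the other transgenic arrays. Control array 1 read 12.95 for Rps4x, below the other controls. The 6 values come from different arrays.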

How the results depend on the processing

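The count of ribosomal protein genes past the test was 2 when a gene was taken as the mean of its probe sets and 2 with the second brightest probe set, each time Rps3 and Rps4l. The Rps3 difference was then 0.50 (limma adjusted p = 0.00672) and 1.81 (adjusted p = 0.000118), which comes from its second probe set. The count was also 2 without the arrays with the most 18S and 2 without those with the most Acta1 (Rpl14 and Rps4l), and ran from 1 to 2 when each array was left out. It was 1 in the other settings. The median difference stayed between -0.03 and 0.03, and the count of member probe sets ran from 2 to 4 when each array was left out. With the replicate number as a block, 1 member passed (Rps4l, adjusted p = 6.49e-05), 4 member probe sets and 672 genes in all, against 364; the added probe set is a dim one of Rps20 (-0.38, adjusted p = 0.0283). Deviations of same-numbered arrays correlated at 0.21, 0.01, 0.33 and 0.36, and numbers 1, 3 and 4 correlated best with their own. These values leave room for a shared part by number. The design text speaks only of biological replicates, so the main test had no term for the number. Over all genes 49 passed with an unequal-variance test per gene, 703 at an adjusted p under 0.10, 98 without the arrays with the most Gh, 171 without the most Acta1, 227 without the most 18S, 213 without those with Xist signal, and 229 and 236 without transgenic arrays 2 and 3. Of 607 values of named members that did not pass, 37 turned sign and 12 moved by over 1 SD.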

Other observations

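Probe sets that name several genes, one of them a ribosomal protein, were not used to name a gene. Of these 110, 1 passed as higher and 3 as lower (3.64%, against 2.74% of probe sets), with a median difference of 0.00 and quartiles of -0.08 and 0.05.

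Genes beside Rps4l and Rps3 were looked at after the values of both were seen. Of the 10 measured genes nearest to Rps4l on chromosome 6, 5 on each side, 0 passed and 2 were under an unadjusted p of 0.05, against 18.2% of all genes. Their differences ran from -0.36 to 0.13, and 2 did not overlap between groups, against 10.7% of all genes: Ccdc91 at -0.36 (limma adjusted p = 0.0573) and 4732416N19Rik at -0.15 (adjusted p = 0.329). Of the 10 nearest to Rps3 on chromosome 7, 0 passed and 7 were under an unadjusted p of 0.05, against 18.2% of all genes, with differences from -0.34 to 0.64. The groups of 3 of these did not overlap, against 10.7%: Tpbgl at 0.35, Neu3 at -0.34 and Mogat2 at -0.25.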
